A study of Mus musculus with 6 samples.

Results

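The nuclear genes of respiratory complex I were followed in sorted kidney epithelial cells. All genes of the deposited table whose symbol starts with Nduf were taken, without symbols marked -ps (pseudogenes), which gave 47 of 16095 genes, of which 46 are reported: 10 named Ndufs or Ndufv, 28 named Ndufa, Ndufb or Ndufc, and 8 assembly factors named Ndufaf. RNA was sequenced in 6 mouse libraries, 3 control (Trf1+/+ with KFP+/t and Cre+/t) and 3 Terf1_flox (Trf1lox/lox, also with KFP+/t and Cre+/t; Trf1 is the protein name of Terf1). Mice of both sexes, 6 to 8 weeks old at the start, were injected with tamoxifen 3 times a week for 8 weeks, controls included, and cells were sorted by an EpCAM antibody and the KFP signal. The Cre is an inducible CreERT2 under the Ksp-cadherin promoter, so recombination is limited to the tubule cells where that promoter is active. No label tells if a library came from 1 mouse or several, and p-values here measure only the spread between libraries (n counts libraries).

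Complex I is the entry point of the mitochondrial respiratory chain: it oxidises NADH, passes the electrons over a flavin and a row of iron-sulfur clusters to ubiquinone, and pumps protons across the inner membrane. Its matrix arm carries the redox groups and its membrane arm the proton channels. A conserved catalytic core, in part encoded by mitochondrial DNA, is surrounded by accessory subunits that bacteria largely lack, and assembly factors build the enzyme without being part of it. Tubule segments that reabsorb much salt, such as the thick ascending limb, are rich in mitochondria. The symbols follow roles only in part: of the 10 Ndufs and Ndufv genes reported, 6 (Ndufv1, Ndufv2, Ndufs1, Ndufs3, Ndufs7 and Ndufs8) encode conserved core subunits, and the other 4 (Ndufs4, Ndufs5, Ndufs6 and Ndufv3) encode accessory subunits.

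Values are normalized counts, that is reads divided by a size factor per library, and total reads ran from 13582140 to 17680986 per library. Terf1, the targeted gene, stood at 529.6, 486.1 and 663.9 in control and, in Terf1_flox libraries, 62.0, 24.6 and 25.3 (log2 fold change -3.99 ± 0.61, SE; limma adjusted p = 0.0814, exact two-sided permutation p = 0.1, the smallest that 3 against 3 libraries can give). Summed markers of the thick ascending limb (8 of 8 with a mean of at least 10) ran from 276665 to 338482 in control and from 231877 to 242109 in Terf1_flox libraries, those of the distal convoluted tubule (5 of 5) from 110990 to 164343 and from 89323 to 147698, those of intercalated cells (10 of 10) from 18949 to 41778 and from 12772 to 20896, and those of the proximal tubule (10 of 12) from 2126 to 4237 and from 4170 to 14690. Principal cell markers (6 of 7) ran from 993 to 2438 and from 415 to 1777. Of 8 endothelial and 5 podocyte markers 0 had values here, and of 8 fibroblast markers 0 reached a mean of 10. Some blood and immune markers did: 4 of 6 erythroid, 3 of 8 lymphocyte and 2 of 10 macrophage or monocyte markers. Summed erythroid markers ran from 190 to 746 in control and from 151 to 554 in Terf1_flox libraries. Those of lymphocytes ran from 192 to 223 and from 25 to 824. Epcam, whose protein was used for the sort, stood at 4510, 5087 and 4416 in the controls against 1831, 1434 and 2977 with Terf1_flox, with no overlap (log2 fold change -1.23 ± 0.29, adjusted p 0.139 by limma and 0.00748 by DESeq2). The share of reads from mitochondrially encoded (mt-) genes was 10.3% to 13.0% in control and 16.2% to 20.6% in Terf1_flox libraries. In such bulk samples fewer cells of a type and less RNA per cell cannot be told apart, and the part of cell makeup and of the sort marker's level in the results below was not tested.

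The complex I genes did not move as a block. In Terf1_flox libraries most small accessory subunits were higher (1.25-fold to 2.20-fold over the 20 whose groups did not overlap), while the catalytic core subunits Ndufv1, Ndufs7 and Ndufs1 and the large accessory subunits Ndufa9 and Ndufa10 were lower by 1.53-fold to 2.46-fold. After a correction for transcript GC content and length, described further on, the groups stayed apart for 2 of these 5 (Ndufs1 and Ndufa9). For Ndufs1 the correction used a median transcript length of 651 bases, shorter than its coding length of 2181. Among the 45 members tested (those with a mean of at least 10), 33 had a log2 fold change above 0, against 47.2% of all tested genes. All 3 Terf1_flox libraries lay above all 3 controls for 27 of the 45 members, against 10.3% of all tested genes, and below them for 5, against 10.8%. The number of members higher without overlap was 25 after that correction and 16 when it used the transcript with the longest coding sequence. The shares of all genes after correction are not given here. The 25 were in part other genes: Ndufa1 and Ndufs4 then overlapped, while Ndufs3 and Ndufs8 were higher. Before correction the median log2 fold change was 0.48 over the members and -0.08 over all 14822 tested genes.

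No single member passed the main test. With limma (Benjamini-Hochberg adjustment over all tested genes, threshold 0.05) 0 of 45 members were called, as were 0 of 14822 genes (0%); at an unadjusted p below 0.05 limma had 24 members higher and 5 lower, against 5.7% and 8.43% of all genes. The edgeR quasi-likelihood test also called 0 (0%), with 30 members at an unadjusted p below 0.05 against 13.4% of all genes. DESeq2 called 15 members higher and 3 lower, against 2.47% and 3.34% of all genes. limma restricted to genes with a mean of at least 50 called Ndufa4, Ndufb1, Ndufc1 and Ndufa3 higher (0.372% of all genes) and Ndufa9 lower (0.855%).

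**Figure D1:**
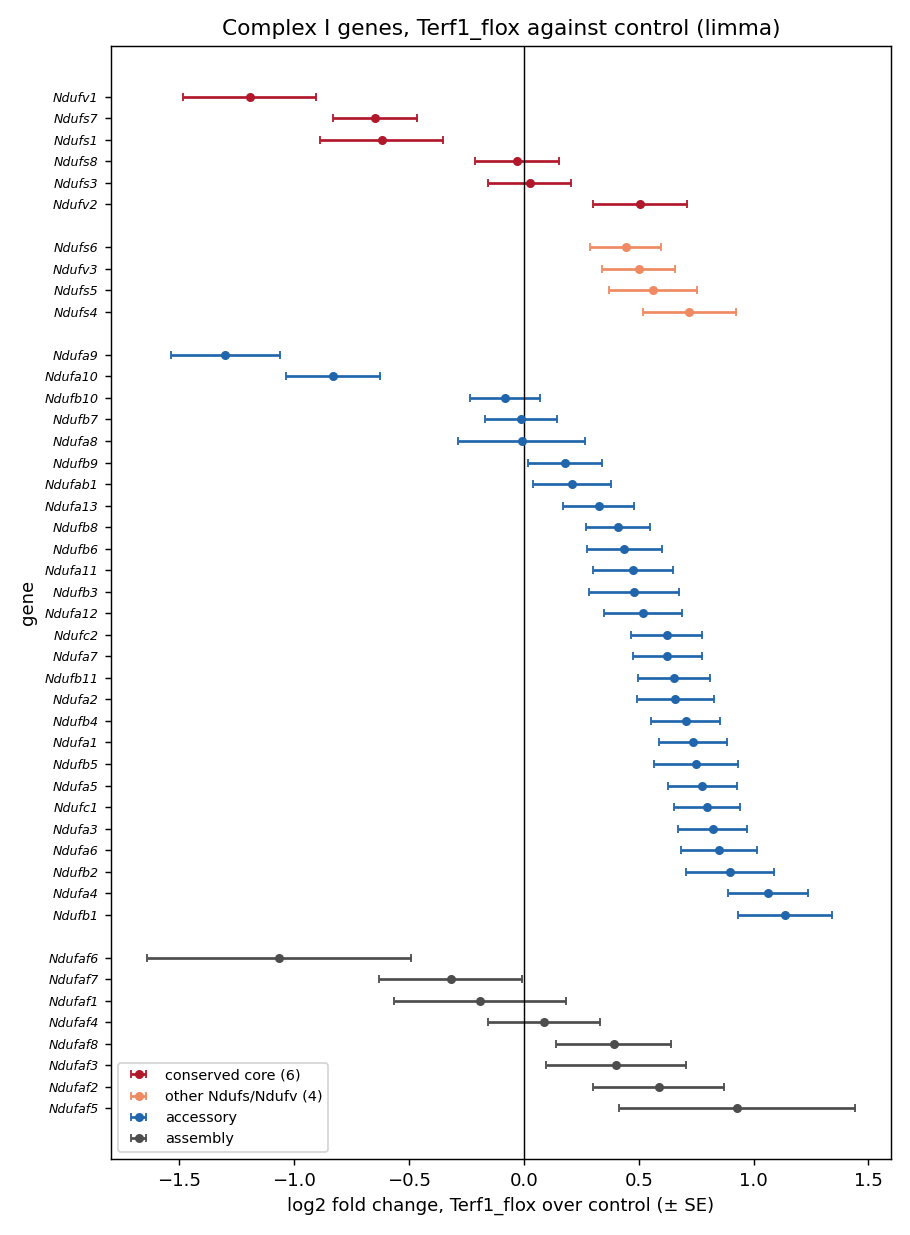
Log2 fold change of each tested complex I gene, Terf1_flox over control, with the limma standard error (x axis), genes grouped by role and sorted (y axis). Most accessory genes lie right of 0 with Ndufa9 and Ndufa10 apart at -1.30 and -0.83, while 3 of the 6 conserved core genes lie left of 0 by more than 0.6.

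The conserved core was split, and before correction its lower members spanned both redox modules of the matrix arm. Of these only Ndufs7 lies in the ubiquinone module, and after the GC content and length correction it was at -0.16 with overlap. Ndufv1, the flavin-binding subunit where NADH is oxidised, stood at 6945, 4145 and 8851 in control and, in Terf1_flox libraries, 2497, 2724 and 3133. Every Terf1_flox library was below every control, though the controls differed among themselves by more than the Terf1_flox libraries did. Its means were 6647 ± 2367 and 2785 ± 322 (SD, n = 3 each), with a log2 change of -1.19 ± 0.29 (SE; adjusted p 0.146 by limma and 0.00227 by DESeq2).

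Ndufs7, which carries the last iron-sulfur cluster before ubiquinone, stood at 7916, 7498 and 8355 in the controls against 4294, 5654 and 5300 with Terf1_flox. The controls were close to each other and all above the Terf1_flox libraries (log2 fold change -0.65 ± 0.18, adjusted p 0.193 by limma and 0.064 by DESeq2). Ndufs1, the largest core subunit with several iron-sulfur clusters, stood at 3957, 3162 and 6059 in control and, in Terf1_flox libraries, 2666, 2957 and 2664. The gap between the groups was narrow, and control replicate 3 was far above the other controls: the log2 fold change of -0.62 ± 0.27 (limma adjusted p = 0.347) was -0.36 without that library.

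The other 3 core subunits were near 0 or higher, and for Ndufs3 and Ndufs8 the sign depended on the scaling and on single libraries. Ndufs3, a cofactor-free subunit of the ubiquinone module, stood at 6953, 6541 and 7570 in the controls against 6406, 8256 and 6863 with Terf1_flox, so the groups overlapped at nearly the same mean (log2 fold change 0.03 ± 0.18, limma adjusted p = 0.966). Ndufs8, which holds a pair of iron-sulfur clusters, stood at 15565, 13825 and 14536 against 12875, 18299 and 12482 (-0.03 ± 0.18, limma adjusted p = 0.961). Its only high Terf1_flox library was replicate 2. Ndufv2, the iron-sulfur partner of Ndufv1, was higher, at 19844, 14047 and 20880 in control and, in Terf1_flox libraries, 21563, 31386 and 24645 (0.51 ± 0.20, adjusted p 0.318 by limma and 0.216 by DESeq2). Its groups did not overlap before correction, but the gap between the highest control and the lowest Terf1_flox library was small.

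Ratios between members of 1 library do not depend on scaling, though they keep any trend with GC content (described further on). Ndufv2 over Ndufv1, which sit side by side in the enzyme, was 2.86, 3.39 and 2.36 in the controls against 8.63, 11.5 and 7.87 with Terf1_flox. Ndufs4 over Ndufs1, both of the matrix arm, was 1.58, 1.68 and 0.694 in control and, in Terf1_flox libraries, 3.19, 3.15 and 2.96. The groups did not overlap in either ratio. Transcript GC content was 44.49% for Ndufv2 and 56.65% for Ndufv1, and 43.99% for Ndufs4 and 50.19% for Ndufs1. After the GC content and length correction Ndufv2 was at 0.29 and Ndufv1 at -0.50 (log2 fold change), both with overlapping groups. Ndufs4 was then at 0.51 with overlap and Ndufs1 at -0.62 without. The part of GC content in the ratios was not tested. These pairs were picked after the values were seen and carry no test.

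**Figure D2:**
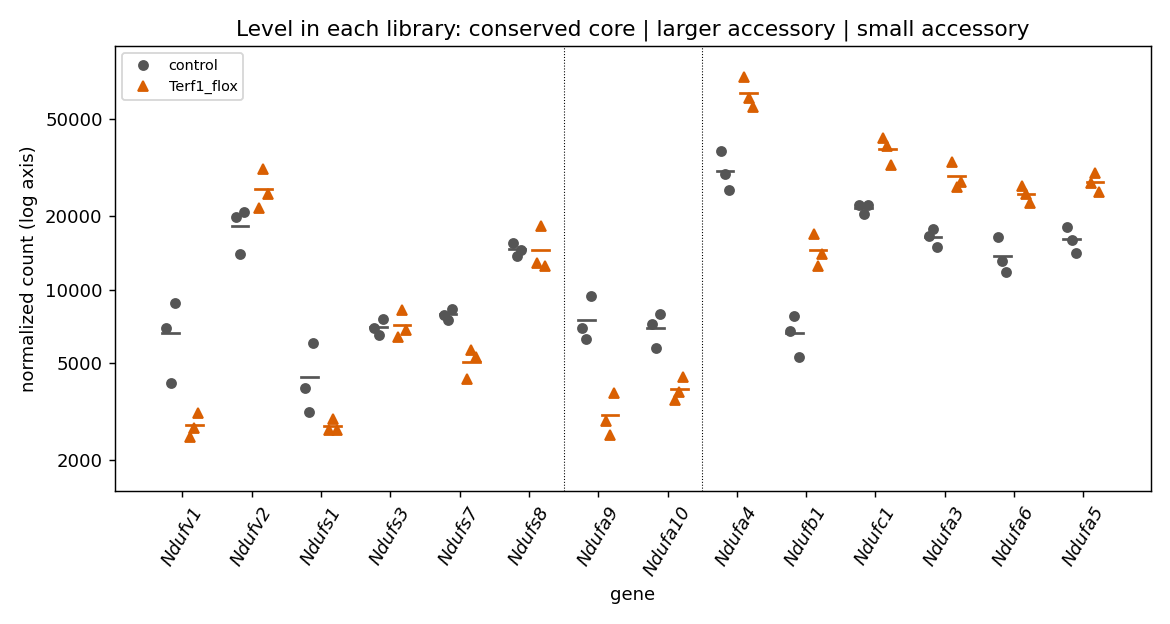
Normalized count (log y axis) in each of 3 control (circles) and 3 Terf1_flox (triangles) libraries, with bars at the group means, for the 6 conserved core genes, 2 large accessory genes and 6 small accessory genes. Ndufv1, Ndufs7, Ndufs1, Ndufa9 and Ndufa10 are lower in every Terf1_flox library, the small accessory genes are higher in every one, and Ndufs3 and Ndufs8 overlap.

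The 4 accessory subunits that carry core-type symbols were higher too. All 4 had a higher level in every Terf1_flox library than in any control (10.3% of all tested genes did). Their median log2 fold change was 0.53, against -0.32 for the 6 conserved core genes. Ndufs4, a matrix arm subunit whose loss in mice gives a mitochondrial encephalopathy, stood at 6261, 5307 and 4202 in the controls against 8509.5, 9308 and 7899 with Terf1_flox. The groups were well apart before correction, at a log2 fold change of 0.72 ± 0.20 (adjusted p 0.191 by limma and 0.0418 by DESeq2). Ndufs6, a zinc-binding subunit of the matrix arm (0.44), Ndufv3, a small partner of the flavin module (0.50), and Ndufs5, on the outer face of the membrane arm (0.56), had limma adjusted p between 0.228 and 0.259. Sorted by symbol alone, the 10 Ndufs and Ndufv genes had a median of 0.23, which averages over both groups.

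Of 27 accessory genes tested, 22 were above 0 (47.2% of all tested genes were), with a median log2 fold change of 0.62. Without overlap 20 were higher and 2 lower, against 10.3% and 10.8% of all tested genes. Ndufa4 had the highest level of all members. It was first described as a complex I subunit and is now placed in cytochrome c oxidase. Its level was 37180 in control replicate 1, 29749 in replicate 2 and 25599 in replicate 3, and 74742, 61426 and 56258 in the Terf1_flox libraries. Even the lowest Terf1_flox library was well above the highest control. The log2 fold change was 1.06 ± 0.17, or 2.09-fold (adjusted p 0.0814 by limma and 0.000273 by DESeq2).

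Ndufb1, a single-span subunit of the membrane arm, had the highest fold change of the members tested, at 6771, 7836 and 5287 in control and, in Terf1_flox libraries, 17006, 12510 and 14045. All Terf1_flox values exceeded the controls, at 2.20-fold (log2 fold change 1.14 ± 0.20, adjusted p 0.0926 by limma and 0.000253 by DESeq2). Ndufc1, another small membrane arm subunit, was tight in control at 22186, 20420 and 22184 and stood at 42007, 38809 and 32391 in Terf1_flox libraries (0.80 ± 0.14, limma adjusted p = 0.0888). Ndufa3, also of the membrane arm, stood at 16590, 17787 and 15053 in the controls against 33457, 26400 and 27794 with Terf1_flox (0.82 ± 0.15, limma adjusted p = 0.0926), but it was at 0.22 when GC content and length were corrected by the transcript with the longest coding sequence. In all 3 genes the SD of either group was smaller than the difference between the means.

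Of 9 accessory subunits of the matrix arm, 8 were above 0, and Ndufa9, described further on, was below. Ndufa6, a LYR-motif protein that binds the acyl carrier protein, stood at 16408, 13151 and 11867 in control and, in Terf1_flox libraries, 26758, 24775 and 22664 (0.85 ± 0.17, limma adjusted p = 0.0991). Ndufa5 stood at 18180, 15988 and 14186 against 27395, 30032 and 25223 (0.78 ± 0.15, limma adjusted p = 0.0991). Both genes had all Terf1_flox libraries above all controls. On the membrane arm, Ndufb2 stood at 9978, 8654 and 7350 against 19337, 15092 and 14059 (log2 fold change 0.90 ± 0.19, limma adjusted p = 0.121). Ndufa1, a small membrane subunit encoded on the X chromosome, stood at 15343, 15725 and 13907 against 28366, 24449 and 22459 (0.74 ± 0.15, limma adjusted p = 0.108). Neither gene had overlapping groups before correction. The medians of the arms were close, 0.63 over 9 matrix arm accessory genes and 0.48 over 19 of the membrane arm, by a list that counts Ndufs4, Ndufs5, Ndufs6 and Ndufv3 as accessory and leaves out Ndufb1, Ndufa4 and Ndufab1.

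The exceptions among accessory genes were the large ones. Ndufa9, which binds NADPH at the junction of the arms, stood at 6962, 6310 and 9390 in the controls against 2906, 2532 and 3761 with Terf1_flox. It was 2.46-fold lower with no overlap (log2 fold change -1.30 ± 0.24, adjusted p 0.0926 by limma and 0.000161 by DESeq2), and limma with equal library totals called it (adjusted p = 0.0499, 0.304% of all genes called). Ndufa10, a subunit of the nucleoside kinase family on the membrane arm, stood at 7229, 5770 and 7993 in control and, in Terf1_flox libraries, 3523, 3825 and 4407. It too was lower in every Terf1_flox library, at -0.83 ± 0.20 (adjusted p 0.148 by limma and 0.0157 by DESeq2).

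A few small subunits differed little. Ndufb10 (-0.08), Ndufb7 (-0.01) and Ndufa8 (-0.01), which lie on the intermembrane space side, had overlapping groups, and so did Ndufb9 (0.18) and the mitochondrial acyl carrier protein Ndufab1. Ndufab1, which also serves fatty acid synthesis, stood at 16316, 12365 and 16118 in the controls against 15408, 18695 and 17488 with Terf1_flox (0.21 ± 0.17, limma adjusted p = 0.621). The 16 accessory genes not given library by library, these included, ran from -0.08 to 0.75, with limma adjusted p from 0.121 to 0.992. Ndufb4c stayed under the minimum mean, at 4.40, 6.67 and 7.10 in control and, in Terf1_flox libraries, 10.9, 13.3 and 11.1. It is a near copy of Ndufb4, so reads may be split between them, and pseudogene copies of Ndufa12, Ndufab1 and Ndufs5 make those 3 genes uncertain for the same reason.

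Assembly factors were far less abundant than subunits and showed no common direction. Their mean levels ran from 554 to 2809 normalized counts, against 3577 to 47492 for the core and accessory genes tested. Of 8 tested, 5 were above 0 and 3 below, and the median was 0.24. The groups overlapped for 6, and 2 were higher without overlap, against 10.3% of all tested genes. Ndufaf2, a late assembly factor related to Ndufa12, stood at 904, 740 and 807 in the controls against 1211, 1437 and 1055 with Terf1_flox (0.59 ± 0.29, limma adjusted p = 0.399). Ndufaf8, the partner of Ndufaf5, was the other one without overlap (0.39 ± 0.25, limma adjusted p = 0.52). The extremes were noisy. Ndufaf6, an early assembly factor, stood at 765, 675 and 715 in control and, in Terf1_flox libraries, 419, 693 and 138 (-1.07 ± 0.57, limma adjusted p = 0.447). Ndufaf5, which hydroxylates Ndufs7, stood at 695, 221 and 850.2 in the controls against 963, 1131 and 829 with Terf1_flox (0.93 ± 0.51, limma adjusted p = 0.461). Control replicate 2 was far below the other controls. Ndufaf3 and its partner Ndufaf4 in the ubiquinone module were at 0.40 and 0.09, Ndufaf7, an arginine methyltransferase, was at -0.32, and Ndufaf1 at -0.19.

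Per kilobase of the annotated transcript with the longest coding sequence, mean levels over the 6 libraries ran from 1344 for Ndufs1 to 22072.5 for Ndufs6 among Ndufs and Ndufv genes, from 2702 for Ndufa10 to 77856 for Ndufa4 among accessory genes tested, and from 382 for Ndufaf1 to 3991 for Ndufaf8 among assembly factors. On this scale the lowest core genes were Ndufs1 and Ndufv1 (2839), which are also 2 of the 3 lower core genes. The annotated transcript need not be the expressed one, so these levels are approximate.

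The class medians, taken relative to each gene's own mean, differed in order between the groups of libraries. As deviations from each gene's mean over the 6 libraries (log2), the 6 conserved core genes had medians of 0.16, -0.09 and 0.25 in the controls against -0.26, 0.03 and -0.23 with Terf1_flox, which overlapped. The accessory genes had -0.09, -0.35 and -0.38 in the controls against 0.36, 0.32 and 0.21 with Terf1_flox. Accessory minus conserved core was thus negative in each control (-0.25, -0.26 and -0.63) and positive in each Terf1_flox library (0.62, 0.29 and 0.44). Each gene was centred on the same 6 libraries, so opposite signs in the groups largely follow once the classes differ in fold change. They do not rank the classes by level. Assembly factors had medians of 0.14, -0.43 and 0.06 in the controls against 0.10, 0.31 and 0.11 with Terf1_flox, which overlapped. The difference between classes is a description over genes chosen for their names and was not tested. Without control replicate 3 the median log2 fold change of the conserved core was -0.20 in place of -0.32.

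**Figure D3:**
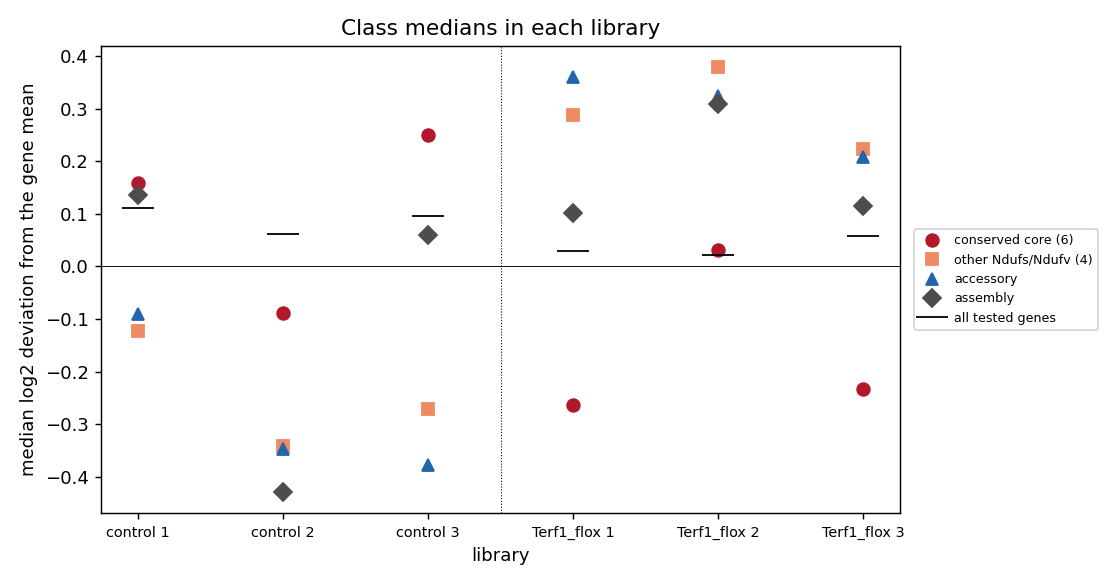
Median log2 deviation from the gene mean (y axis) of each class in each library (x axis), with the median of all tested genes as a dash. The conserved core lies above the accessory genes in the 3 control libraries and below them in the 3 Terf1_flox libraries. Each gene is centred on its own mean, so this order is not one of level.

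The family as a whole took a larger share of the reads in every Terf1_flox library than in any control. All 46 genes together held 3.95%, 3.62% and 3.59% of reads in the controls against 4.82%, 4.66% and 4.32% with Terf1_flox, and 4.54%, 4.15% and 4.00% against 5.89%, 5.56% and 5.44% of the reads outside mt- genes. The 6 conserved core genes held 0.433%, 0.380% and 0.475% in the controls against 0.333%, 0.439% and 0.357% with Terf1_flox, which overlapped. Reads are not weighed by transcript length here, so these are shares of reads, not of molecules.

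Longer subunits tended to have the lower fold changes. Over the 36 core and accessory genes with an annotated coding sequence (GENCODE M21, longest per gene), log2 fold change and log2 coding length had Pearson r = -0.755 and Spearman rho = -0.712. With log2 transcript length r was -0.35 and rho -0.301, and with transcript GC content (37 genes) -0.357 and -0.489. Over all 11977 tested genes with a coding sequence, r with log2 coding length was 0.01. These are descriptions across genes measured in the same libraries, and the level of a gene moved with the fold change too (r = 0.638 with the log2 mean level over 37 core and accessory genes). Of 27 core and accessory genes under 600 coding bases, 24 were above 0 and 0 were lower without overlap. Of the 9 from 600 bases on, 6 were below 0 and 5 lower without overlap. Over all tested genes 10.8% were lower without overlap. The length of 600 was chosen after the values were seen. Ndufv3, at 1404 bases in the longest annotated form, Ndufv2 and Ndufs3 were the 3 long genes above 0. Over all tested genes, those in the shortest of 5 bins of coding length (up to 738 bases) had a median of 0.05, where the 33 members in that bin had 0.52. In the next bin (738 to 1146 bases) the medians were -0.30 over all genes and -0.19 over 7 members, and in the middle bin -0.36 and -0.32 over 3 members. In the longer bins the medians over all genes were -0.19 and -0.01. The medians of all genes thus fell and rose again, which r over all genes does not show.

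**Figure D4:**
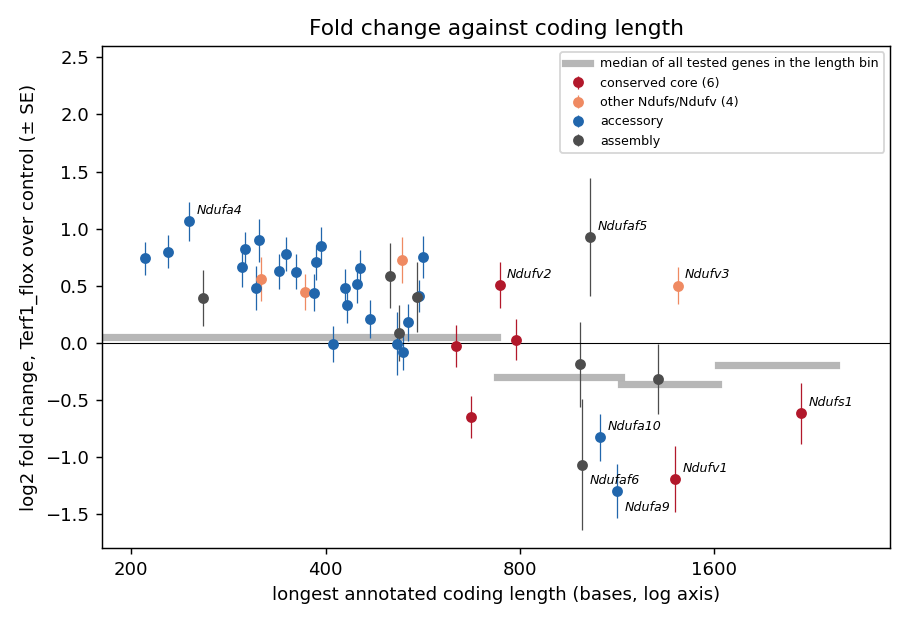
Log2 fold change with its standard error (y axis) against the longest annotated coding length in bases (log x axis), for tested members with an annotated coding sequence (Ndufb1 has none), by role. Grey bars mark the median of all tested genes in each of 4 length bins. Most short subunits lie above the grey bar of their bin, and Ndufv1, Ndufa9 and Ndufa10 lie below theirs.

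Transcript GC content also moved with the comparison over all genes. Sorted into 5 GC bins of like size, genes in the lowest bin had a median of 0.36 and genes in the highest bin -0.49 (log2 fold change). The 6 conserved core genes had a median GC content of 55.2%, the accessory genes 52.2% and the assembly factors 47.4%, against 49.6% over all tested genes, and the GC bin that holds the accessory median had a median log2 fold change of -0.33 over all genes. After removal of a smooth trend in GC content and length from each library, the accessory median was 0.63 and the conserved core median 0.07, above 0 where it was -0.32 before, against 0.08 over all genes. Ndufa9 was then at -1.04 and Ndufs1 at -0.62, with no overlap. Ndufv1 was at -0.50, Ndufa10 at -0.26 and Ndufs7 at -0.16, all overlapping, while Ndufs3 and Ndufs8 were at 0.47 and 0.51, higher without overlap. Among the higher genes Ndufb1 was at 1.32 and Ndufa4 at 0.58 without overlap. Ndufb1 has no coding sequence in the annotation used, so its GC content and length came from transcripts not annotated as coding. Ndufs4 was at 0.51, Ndufa1 at 0.37 and Ndufv2 at 0.29, all with overlap. The correction took Ndufs1 at a median transcript length of 651 bases, though its coding length is 2181. Corrected by the transcript with the longest coding sequence, Ndufs1 was at -0.41 and Ndufa9 at -1.01. The part of GC content in these differences was not tested beyond these corrections.

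Promoters of members that moved together are shown because nuclear complex I genes are classic targets of the factor NRF1 and of estrogen-related receptors. RefSeq windows (build GRCm38.p6) were found for 41 of the 46 genes, with 43 start sites. The 250 bases before each start were searched on both strands for GCGCA followed by any base and GCGC (NRF1), CCGGAAG (ETS factors), AAGATGGC (YY1), AAGGTCA (estrogen-related receptors) and CCAAT. An NRF1 match was in 18.6% of member windows and 3.74% of all 32851 windows, and an AAGGTCA match in 6.98% and 4.08%. CCGGAAG was in 11.6% and 6.91%, CCAAT in 32.6% and 33.8%, and AAGATGGC in 0% and 1.56%. NRF1 matches were in 6 of 28 windows of the members higher without overlap in 2 of 11 windows of the members with overlap and in 0 of 4 windows of the lower ones, numbers too small to compare. The median GC content was 58.4% in member windows and 52.4% in all windows, and the NRF1 motif consists almost only of G and C; the part of GC content in the shares was not tested. In the sequences below, 5′ to 3′ and ending at the base before the start, capitals mark every match: Ndufv1 and Ndufa9 stand for the lower genes, Ndufa4 for the most abundant higher one, and Ndufb4 and Ndufs5 for higher genes with NRF1 matches.
Ndufv1, chr19:4012756-4013005, minus strand: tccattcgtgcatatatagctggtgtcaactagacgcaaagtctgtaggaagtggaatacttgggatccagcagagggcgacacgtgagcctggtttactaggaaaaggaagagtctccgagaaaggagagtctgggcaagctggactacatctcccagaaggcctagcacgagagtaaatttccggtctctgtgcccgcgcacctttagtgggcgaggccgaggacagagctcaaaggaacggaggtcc
Ndufa9, chr6:126849145-126849394, minus strand: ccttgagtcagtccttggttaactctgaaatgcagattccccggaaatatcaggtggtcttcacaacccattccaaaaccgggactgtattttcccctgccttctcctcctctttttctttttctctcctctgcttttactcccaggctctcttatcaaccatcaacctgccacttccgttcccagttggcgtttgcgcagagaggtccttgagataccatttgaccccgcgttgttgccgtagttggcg
Ndufa4, chr6:11907451-11907700, minus strand: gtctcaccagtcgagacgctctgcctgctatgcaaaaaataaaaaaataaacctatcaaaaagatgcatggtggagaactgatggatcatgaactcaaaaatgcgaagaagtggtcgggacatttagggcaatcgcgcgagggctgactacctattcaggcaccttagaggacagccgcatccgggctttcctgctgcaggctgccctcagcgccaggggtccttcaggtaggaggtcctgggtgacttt
Ndufb4, chr16:37654369-37654618, minus strand: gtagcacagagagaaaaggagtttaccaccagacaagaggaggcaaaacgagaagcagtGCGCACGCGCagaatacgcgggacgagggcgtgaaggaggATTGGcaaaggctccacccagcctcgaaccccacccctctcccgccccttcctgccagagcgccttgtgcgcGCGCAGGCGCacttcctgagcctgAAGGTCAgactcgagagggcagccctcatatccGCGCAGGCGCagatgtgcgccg
Ndufs5, chr4:123718187-123718436, minus strand: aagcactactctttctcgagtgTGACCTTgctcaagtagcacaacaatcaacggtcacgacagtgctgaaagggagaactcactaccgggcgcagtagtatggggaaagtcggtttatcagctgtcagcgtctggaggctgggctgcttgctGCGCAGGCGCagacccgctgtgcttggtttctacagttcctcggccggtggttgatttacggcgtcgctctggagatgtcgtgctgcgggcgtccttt
The Ndufb4 window holds 3 NRF1 matches and 1 AAGGTCA and 1 CCAAT match, the Ndufs5 window 1 NRF1 and 1 AAGGTCA match, and the other 3 windows hold none of these letters. A match is a string of letters, not a bound site.

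Other genes of the pathway were read from lists. Of the 7 mitochondrially encoded complex I subunits, which form the proton-pumping membrane core, 7 were above 0 with a median log2 fold change of 0.70. Groups were higher without overlap for 5, against 10.3% of all tested genes. limma called 0, and DESeq2 called 2 higher (2.47% of all genes). mt-Nd1 had means of 173621 ± 47473 (control) and 305879 ± 36888 (Terf1_flox; SD, n = 3 each), with log2 fold change 0.85 ± 0.20 (SE, limma adjusted p = 0.142), and once GC content and length were corrected the median of the 7 was 0.19, with 4 above 0. Assembly factors without an Nduf symbol had mostly lower values before correction. Of 13 tested, 4 were above 0, against 47.2% of all tested genes, with a median of -0.40. In limma 0 of the 13 passed, with 3 lower at an unadjusted p below 0.05 (8.43% of all genes). DESeq2 called 1 lower (3.34% of all genes). After the GC content and length correction the median of the list was 0.04, with 7 of 13 above 0. The gene called was Aifm1, a flavoprotein that supports the import of respiratory subunits, at 3194 ± 1027 in control and 1314 ± 199 in Terf1_flox libraries (-1.24 ± 0.29, adjusted p 0.139 by limma and 0.00288 by DESeq2). Foxred1, an assembly factor with a flavin fold, averaged 443 ± 63.6 and 152 ± 81.7 with no overlap (-1.67 ± 0.54, limma adjusted p = 0.232). Dmac2, an assembly factor of the membrane arm, averaged 1082 ± 33.9 and 690.2 ± 40.6 (-0.65 ± 0.28, limma adjusted p = 0.346), and was at 0.04 after the correction.

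Among 10 transcription factors and coactivators of respiratory genes, 7 were above 0 and 3 below, and 0 passed in limma, edgeR or DESeq2 (0 at an unadjusted p below 0.05 in limma). Ppargc1a, the coactivator PGC-1alpha, had means of 4792 ± 248 (control) and 6367 ± 1045 (Terf1_flox), with no overlap (0.40 ± 0.19, limma adjusted p = 0.393). Esrra, the estrogen-related receptor alpha, averaged 166 ± 33.3 and 281 ± 51.7, also with no overlap (0.76 ± 0.48, limma adjusted p = 0.512). Pprc1, a coactivator related to Ppargc1a, had the smallest p of the list but a level near the minimum, at 17.9 ± 23.4 and 76.9 ± 53.9 (limma adjusted p = 0.388). Of the 10, 2 were higher without overlap, against 10.3% of all tested genes. The 3 below 0 were Gabpb1 (-1.07), Ppargc1b (-0.67) and Esrrg (-0.38), all with overlapping groups. Esrrg, another estrogen-related receptor, averaged 1194 ± 216 in control and 1004 ± 525 in Terf1_flox libraries. Nrf1, Gabpa, Yy1 and Tfam also had overlapping groups.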

How the data were processed

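The authors deposited 1 table of normalized counts (a signal: gene reads divided by a size factor per library) with 16095 gene symbols. DESeq2 and build GRCm39 are named, per the submitters' processing notes; aligner, counter and annotation: not given in the sources used here. Each library's deposited values had a single step, and 100% of them were whole reads to within 0.01, so reads could be recovered.

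limma 3.58.1 in R 4.3.3 (empirical Bayes with a trend, two-sided) was run on log2 of the normalized count plus a pseudocount of 1 for 14822 genes (mean 10 or more), with Benjamini-Hochberg adjustment. Fold changes are on that scale. edgeR 4.0.16 and DESeq2 1.42.0 were run on the recovered reads as alternatives (0 and 772 genes called), all tested on simulated data. Transcript GC content and length, from GENCODE M21 (GRCm38) by symbol or synonym, matched 46 of 46 members reported. They were medians over protein-coding transcripts, or over all transcripts of a gene without one. Ndufb1 and Ndufb4c had no annotated coding sequence there. Ndufb1 is thus absent from the coding length comparison and from the correction by the longest coding transcript. Trends were splines with 4 degrees of freedom each. The labels mention no molecular identifiers, so reads are not counted molecules.

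Of the genes found by symbol, 1 is not reported here: it stayed in the fits across all genes and enters no count, median or figure of members. The members and lists were chosen with earlier results of these data known. Described in full were the 6 conserved core genes, Ndufa4, Ndufab1 and up to 8 members per direction with the smallest limma p, mean 50 or more and groups apart; others are given by ranges, or were named after their values were seen. Ndufa4l2 was not analysed here. Figures were drawn with matplotlib 3.10.9.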

Additional observations from a re-analysis of the deposited data

How the results depend on the processing

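The accessory median lay above the conserved core median under all 19 other settings tried and 1 chosen after seeing the data. Many of these are no check on it. Scaling by 1 factor per library, the filters, the pseudocount and the replicate block leave the difference at about 0.95 by construction. Over all settings it ran from 0.33 to 1.06 (0.95 as reported). It was lowest with GC content and length corrected by the transcript with the longest coding sequence (the added setting). With the other GC content and length correction it was 0.56, and without control replicate 3 it was 0.73. The conserved core median itself, -0.32, was 0.07 and 0.091 under the corrections by median and by longest coding transcript. Scaling moved the median of all genes from -0.08 to -0.24 with equal library totals, 0.04 with equal upper quartiles and 0.06 with quantile normalization, and the GC content and length correction moved it to 0.08; class medians shifted with it.

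limma called 132 genes and 5 members among genes of mean 50 or more, 45 genes and 1 member with equal library totals, and 8 genes with quantile normalization; DESeq2 called 772 genes and 18 members. Terf1 passed among genes of mean 50 or more (-3.99), with equal library totals (-4.17) and with DESeq2 (-3.89). With equal library totals the median of Ndufs and Ndufv genes was 0.059 and of accessory genes 0.45; with quantile normalization the accessory median was 0.40. After the GC content and length correction the Ndufs and Ndufv median was 0.49 and 2 members were lower without overlap. With the longest coding transcript the medians were 0.39 (Ndufs and Ndufv), 0.42 (accessory) and -0.015 (assembly), and 16 members were higher and 3 lower without overlap. Shares over all genes are not given here for overlap counts outside the main setting. Leaving out 1 library gave 0 genes and 0 members called, 27 to 29 members higher and 5 to 9 lower without overlap (fewer samples overlap less; 9 without Terf1_flox replicate 2), and Terf1 from -4.42 to -3.77. In those fits the medians ran from 0.14 to 0.28 (Ndufs and Ndufv), 0.53 to 0.69 (accessory) and 0.07 to 0.31 (assembly).

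Genes near 0 changed sign. Ndufs3 was at -0.15 with equal library totals and -0.056 with quantile normalization, and from -0.080 to 0.10 leaving out 1 library. Ndufs8 was at 0.091 with equal upper quartiles, 0.012 with edgeR and 0.0095 with DESeq2, 0.51 with GC content and length corrected (0.51 also with the replicate block) and 0.39 with the longest coding transcript, and from -0.21 to 0.070 leaving out 1 library. With the longest coding transcript Ndufa1 was at -0.033 and Ndufa3, at 0.82 as reported, was at 0.22. The cause of these shifts was not tested.

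The replicate block called 0 genes and 0 members. In this balanced design it cannot change a fold change, so the Ndufs and Ndufv median stayed at 0.23 by construction. With GC content and length corrected in the same fit that median was 0.49 and 2 members were lower without overlap, as with that correction alone. Deviations of same-numbered libraries correlated at -0.0486, 0.000129 and -0.00694, and 0 of 3 control libraries correlated best with their own number. The values thus show no shared deviation by number, but they cannot tell whether the samples were paired in the experiment.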
